A study of Homo sapiens with 3 samples.

Results

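The genes described here are the splicing factor genes of 7 subfamilies, chosen as the protein-coding genes of the GENCODE annotation (release 44, mapped to the hg19 assembly) whose symbols start with SNRP, SF3A, SF3B, SRSF, HNRNP, PRPF or LSM followed by a letter or digit. This name rule gave 86 genes among 20098 protein-coding genes on the chromosomes that hold peaks, namely 12 SNRP, 3 SF3A, 6 SF3B, 12 SRSF, 25 HNRNP, 13 PRPF and 15 LSM genes. Chromatin of formaldehyde-fixed MDA-MB-231 cells, an established human breast adenocarcinoma line grown adherent in serum-containing medium, was immunoprecipitated with an antibody against BMAL1 or against MAX. There was 1 library for each antibody and 1 input library, and no other condition or replicate, so no difference below carries a replicate test. The MAX list held 13650 peaks from 11545865 tags and the BMAL1 list 756 peaks from 13866783 tags. Both were called by the authors against the same input of 29308882 tags.

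MAX is the obligate partner of the MYC family and of repressors such as MNT, and its dimers contact E-boxes, with CACGTG as the preferred form. BMAL1 pairs with CLOCK, binds the same element and drives the circadian clock. The spliceosome removes introns from pre-messenger RNA. It is assembled from small nuclear ribonucleoprotein particles (snRNPs), in which Sm or LSm proteins form a ring on the RNA, and from further proteins that recognise splice sites and rearrange the particles. SR proteins and heterogeneous nuclear ribonucleoproteins (hnRNPs) bind the transcript itself and promote or repress the use of splice sites.

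A promoter peak was a deposited peak whose summit, the position of highest signal, was at most 1 kb from a transcription start site (TSS) annotated for the gene, whichever the transcript. MAX promoter peaks were listed at 63 of the 86 splicing factor genes (73.3%, Wilson 95% interval 63.1% to 81.5%), against 36.4% of all protein-coding genes. BMAL1 promoter peaks were listed at 2 of them, HNRNPF and SNRPE (2.33%, interval 0.64% to 8.09%), and at 1.85% of all protein-coding genes. The BMAL1 share was thus near the background, whereas the interval of the MAX share lay above it. The intervals count genes and cover counting error only, and genes of 1 library are not replicates of a condition.

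The promoters that carried both factors are shown first, since they are the only splicing factor promoters on the BMAL1 list. For each, the reference sequence of hg19 is printed on the gene's strand, from 100 bp before the MAX summit or, where a TSS intervened, up to the base before that TSS. Capitals mark the E-box in HNRNPF and its variant forms in SNRPE.
HNRNPF, chr10:43903268-43903449, minus strand: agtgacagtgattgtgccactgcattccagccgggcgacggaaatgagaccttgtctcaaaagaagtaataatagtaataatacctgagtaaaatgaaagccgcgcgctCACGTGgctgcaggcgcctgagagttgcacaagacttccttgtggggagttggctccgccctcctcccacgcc
SNRPE, chr1:203830638-203830726, plus strand: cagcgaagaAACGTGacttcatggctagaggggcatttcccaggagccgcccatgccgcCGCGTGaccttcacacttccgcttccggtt

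At HNRNPF, which encodes an hnRNP that binds G-rich RNA, the MAX peak (chromosome 10, 43902974 to 43904694) had the highest fold enrichment over input of all splicing factor genes, 27.29, with 43 fragments at the summit. It exceeded 99.2% of the MAX list. The BMAL1 peak at the same place (43903053 to 43903660) had a fold enrichment of 25.36 with 48 fragments, above 92.3% of the BMAL1 list. The summits lay 24 bp apart, and the CACGTG at 43903335 to 43903340 was centred 11 bp from the MAX summit and 12 bp from the BMAL1 summit. Both summits were in an intron, 82 bp (MAX) and 58 bp (BMAL1) upstream of an alternative TSS and 1285 bp and 1309 bp downstream of the canonical one. A further pair of MAX peaks without BMAL1 (fold enrichments 8.46 and 9.92) lay 11897 and 12625 bp downstream of the canonical TSS, at other annotated starts of HNRNPF.

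SNRPE, which encodes the Sm ring protein E, had the next highest MAX fold enrichment, 24.26, also with 43 fragments at the summit (chromosome 1, 203830465 to 203831083). Its summit lay 11 bp downstream of the canonical TSS, in a non-coding part of an exon. The BMAL1 peak (203830499 to 203830829) was much weaker than that of HNRNPF, with a fold enrichment of 10.95 and 23 fragments, above 56.1% of the BMAL1 list. Its summit was 52 bp from that of MAX and 41 bp upstream of the TSS. No CACGTG occurred anywhere in either SNRPE peak, and the capitals in its printed stretch are 1 E'-box (AACGTG, the reverse complement of CACGTT) and 1 CGCGTG, a form with a single base changed. The 2 promoters with both factors thus had equal MAX fragment counts, and HNRNPF alone of the pair held the canonical element.

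The share of genes with a MAX promoter peak differed between the subfamilies. It was highest for PRPF, with all 13 genes (100%, interval 77.2% to 100%), followed by SRSF with 10 of 12 (83.3%, 55.2% to 95.3%), SNRP with 9 of 12 (75.0%, 46.8% to 91.1%) and HNRNP with 18 of 25 (72.0%, 52.4% to 85.7%). SF3A had 2 of 3 (66.7%, 20.8% to 93.9%), LSM 8 of 15 (53.3%, 30.1% to 75.2%) and SF3B 3 of 6 (50.0%, 18.8% to 81.2%). The intervals of neighbours in this order all overlapped, and that of PRPF lay above that of LSM. That gap depended on LSMEM1 and LSMEM2, which share only the letters of the prefix. Without them the LSM share was 61.5% (35.5% to 82.3%), and its interval overlapped that of PRPF. The intervals of PRPF, SRSF, SNRP and HNRNP excluded the 36.4% of all protein-coding genes, and those of SF3A, SF3B and LSM did not.

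**Figure D1:**
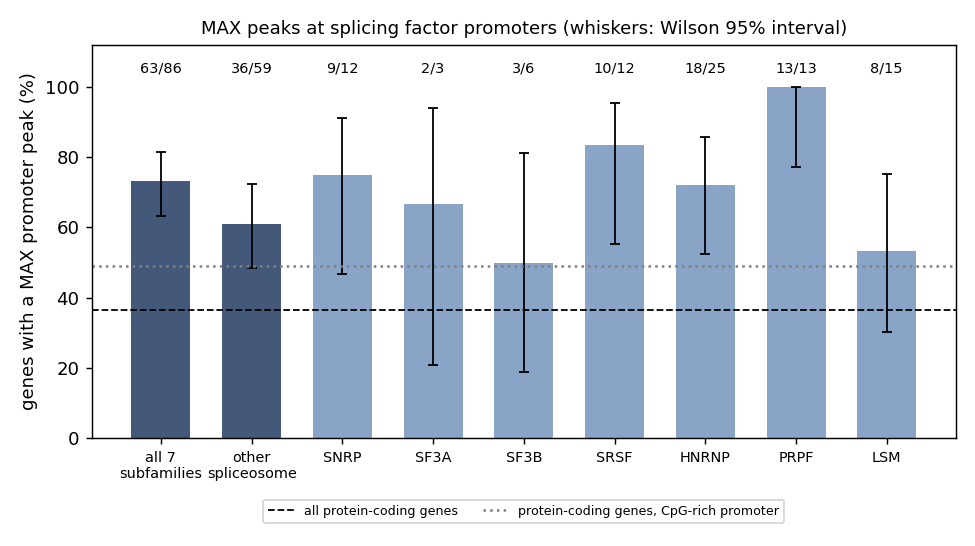
Share of genes with a MAX promoter peak (y axis, percent) for the 86 splicing factor genes, the 59 other spliceosome genes and each subfamily, with the number of genes above each bar and Wilson 95% intervals as whiskers; the dashed line is the share of all protein-coding genes (36.4%) and the dotted line that of genes with CpG-rich promoters. PRPF reached 100%, whereas LSM and SF3B stood near the dotted line at 49.1%.

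Splicing factor promoters differ from the average promoter in composition, and these values stand beside the share. The 500 bp around the canonical TSS were CpG-rich (at least 50% G and C, with a CpG observed to expected ratio of at least 0.6) in 79 of the 86 genes (91.9%) and in 66.9% of all protein-coding genes. Among genes with such promoters, a MAX promoter peak was listed at 62 of 79 splicing factor genes (78.5%, interval 68.2% to 86.1%) and at 49.1% of all. In SNRP, SF3A, SF3B and PRPF every gene had such a promoter. The intervals of SNRP (46.8% to 91.1%), SF3A and SF3B included 49.1%, and that of PRPF (77.2% to 100%) lay above it. Splicing factor genes also had a median of 7 annotated TSSs against 5. When only the canonical TSS was used (an alternative added once the data had been seen), 61 of the 86 genes (70.9%) kept a MAX peak within 1 kb, against 32.0% of all protein-coding genes. The part of composition and of TSS number in the MAX share was not tested further.

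A separate list of 59 spliceosome and splicing genes with other names, from SNRNP70 and U2AF1 to the SMN-associated GEMIN genes, had MAX promoter peaks at 36 (61.0%, interval 48.3% to 72.4%). The highest fold enrichments there were those of PTBP1 (25.81), an hnRNP that represses exons, PUF60 (20.38), which assists recognition of the 3' splice site, and SYNCRIP (20.31), another hnRNP. PTBP1 and SYNCRIP also carried BMAL1 promoter peaks, with BMAL1 fold enrichments of 8.98 and 8.02. The BMAL1 share of this list was thus 2 of 59 (3.39%, interval 0.935% to 11.5%), and that of the HNRNP subfamily 1 of 25 (4.0%, 0.71% to 19.5%). Both intervals included the 1.85% of all protein-coding genes. With so few BMAL1 peaks, no preference for a family can be read from them.

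The level of MAX was compared at the bound promoters only, since promoters without a listed peak have no value. For the strongest promoter peak of each of the 63 genes, fold enrichment ranged from 4.02 to 27.29 with a median of 11.63 (quartiles 9.55 and 14.86), beside 10.79 (8.57 and 13.94) over all 7310 protein-coding genes with a MAX promoter peak. The 95% interval of the members' median, from order statistics, was 10.15 to 12.97 and included the value of all genes. The median was 14.74 for SRSF, 13.37 for HNRNP, 10.99 for SNRP, 10.91 for SF3A, 10.58 for PRPF, 9.44 for LSM and 8.88 for SF3B. The interval of SRSF (11.69 to 17.93) lay above the median of all genes, while that of HNRNP reached down to 10.15. Both depended on taking the strongest peak of each gene. With the peak nearest to a TSS instead, the SRSF median was 14.62 but its interval (9.59 to 15.7) included the 10.27 of all genes, and the HNRNP median was 10.15, below it. The SRSF interval also included the value of all genes with 1 value per distinct peak, with the canonical TSS alone and with pileup or -log10 p as the measure. Of the 63 genes, 24 (38.1%) ranked above 75% of the whole MAX list, against 34.5% of all protein-coding genes with a MAX promoter peak. By subfamily these were 7 of 10 SRSF genes and 11 of 18 HNRNP genes, 2 of 13 PRPF, 2 of 9 SNRP and 2 of 8 LSM genes, and none of the 5 SF3A and SF3B genes. PRPF thus had the highest share of bound genes, with a median fold enrichment near that of all genes. Relative to all genes, its median was 0.98 with fold enrichment, 1.05 with pileup and 1.15 with -log10 p. Each of these intervals included the value of all genes.

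**Figure D2:**
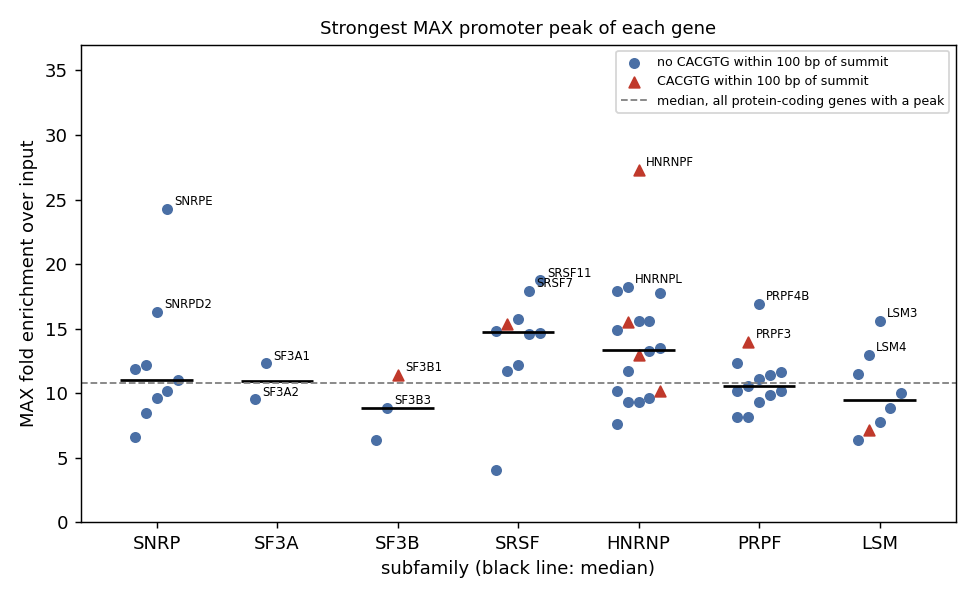
MAX fold enrichment over input (y axis) at the strongest promoter peak of each of the 63 genes, by subfamily, with medians as black lines and the median of all protein-coding genes (10.79) dashed; triangles mark summits with CACGTG within 100 bp. Most SRSF and HNRNP points lie above the dashed line, and 8 triangles are spread over weak and strong peaks.

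Among the snRNP core genes, 6 of the 8 Sm ring genes had a MAX promoter peak. After SNRPE came SNRPD2 (fold enrichment 16.32, 27 fragments), whose summit 72 bp upstream of the TSS was also near a start of QPCTL. SNRPD1 (12.18), SNRPF (10.99), SNRPB (8.46) and SNRPG (6.6) followed. SNRPG was the weakest of the subfamily by fold enrichment although it had 26 fragments, over an input background of 3.94. SNRPD3 and SNRPN, a paralogue of SNRPB in an imprinted region, had no MAX promoter peak, and their nearest MAX summits were 121886 and 715068 bp away. Both U1 snRNP genes with the SNRP prefix, SNRPA (11.85) and SNRPC (10.15), were bound. Of the U2 snRNP genes with this prefix, SNRPA1 (9.59) was bound and SNRPB2 was not.

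The SNRP summits lay close to the TSS. Their median distance to the nearest TSS, without regard to direction, was 28 bp, against 77 bp for all 63 genes and 118 bp for all protein-coding genes with a peak, and 8 of 9 were within 100 bp. SNRPC was the exception, with its summit 151 bp upstream. Over the 63 genes, 37 summits (58.7%) were within 100 bp of a TSS, compared with 46.0% for all protein-coding genes with a peak. Upstream of the TSS lay 44 of the 63 summits, and 4583 of the 7310 for all protein-coding genes with a peak. By place, 29 summits lay outside the gene, 28 in a non-coding part of an exon and 6 in an intron, a split not computed for all genes. The peaks nearest to the 1 kb limit on its inner side were those of LSM14B (943 bp upstream, fold enrichment 7.79) and SRSF2 (770 bp upstream, 4.02). The first on its outer side was at LSM12, 3039 bp from a TSS, with a fold enrichment of 23.8.

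**Figure D3:**
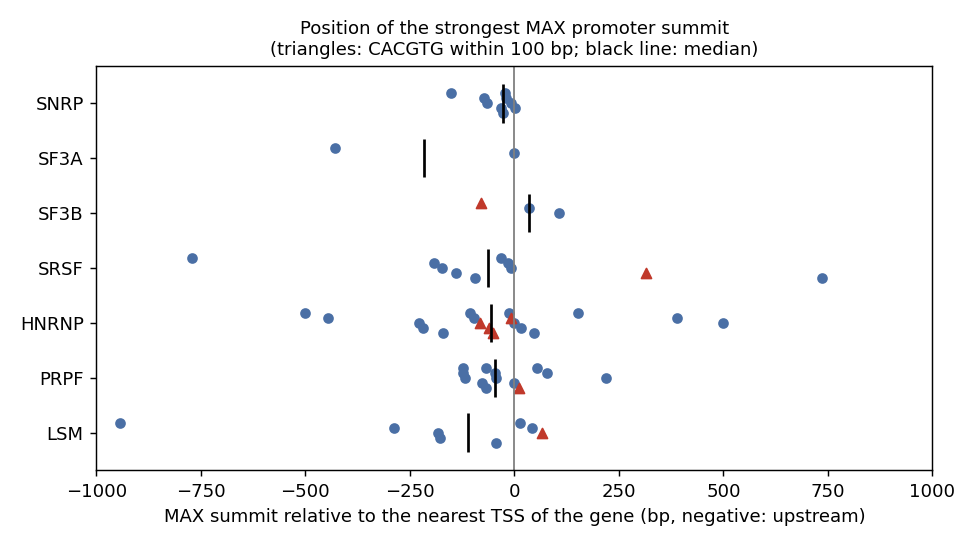
Position of the strongest MAX promoter summit relative to the nearest TSS of the gene (x axis, bp, negative values upstream) by subfamily, with medians as black lines and triangles for summits with CACGTG within 100 bp. SNRP summits cluster at the TSS, whereas SRSF and HNRNP summits extend farther to either side.

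Of the 7 genes for the LSM2 to LSM8 ring, which holds the end of U6 RNA, 4 had a MAX promoter peak. These were LSM3 (fold enrichment 15.6), LSM4 (12.97), LSM2 (10.0) and LSM7 (6.35). LSM3 had its summit 289 bp upstream of its TSS and shared the peak with XPC, a gene of nucleotide excision repair. LSM5, LSM6 and LSM8 had none, and their nearest MAX summits were 233741, 440938 and 1467289 bp away. LSM10 (11.48) and LSM11 (8.88), which replace Sm proteins in the U7 particle for histone RNA processing, were both bound, as was LSM1 (7.11), which takes the place of LSM8 in the cytoplasmic ring for RNA decay. LSM14B, a P-body protein, was bound and its paralogue LSM14A was not. LSM12 was unbound as well. LSMEM1 and LSMEM2 share only the letters of the prefix, since they encode membrane proteins, and neither was bound. They were also the only LSM genes whose canonical promoters were not CpG-rich, and of the other 13, 8 had a MAX promoter peak (61.5%).

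The SF3A and SF3B complexes hold the U2 snRNP on the branch point. The MAX fold enrichment of SF3A1 was 12.31, at 2 bp before a TSS, and that of SF3A2 was 9.52, at 429 bp before its TSS and in a promoter shared with PLEKHJ1. SF3B1, the subunit that encloses the branch point and that is recurrently mutated in leukaemia, had the highest value of its complex, 11.42, followed by SF3B3 (8.88) and SF3B5 (6.35). SF3A3, SF3B2, SF3B4 and SF3B6 had no MAX promoter peak, and their nearest MAX summits were 9958, 35165, 28326 and 8706 bp away. All 5 bound genes of these 2 subfamilies were therefore at or below 12.31.

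All PRPF genes were bound. The kinase gene PRPF4B had the highest fold enrichment (16.92), followed by PRPF3 (13.99) and PRPF38B (12.35), and PRPF19, the ubiquitin ligase of the Prp19 complex, and PRPF39, associated with U1, had the lowest (8.12 each). The 5 PRPF genes of the tri-snRNP, PRPF3, PRPF4 (10.13), PRPF6 (11.63), PRPF8 (9.31) and PRPF31 (9.87), lay within this range. PRPF8 forms the core around the catalytic centre, PRPF3 and PRPF4 bind the U4/U6 particle, and PRPF6 and PRPF31 hold the particles of the tri-snRNP together. PRPF18 (11.12), which acts in exon joining, PRPF38A (10.13) and PRPF40B (11.42) did so too. The PRPF40B value belonged to a peak at the start of a long transcript, 55325 bp upstream of the canonical TSS and shared with MCRS1. Its own promoter peak, 585 bp upstream of the canonical TSS, had a fold enrichment of 10.58 and a CACGTG centred 39 bp from the summit.

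SR protein genes had the highest median of the strongest peaks. SRSF11 led with a fold enrichment of 18.74 and 31 fragments, its summit 58 bp downstream of the canonical TSS. SRSF7 followed with 17.93, and its peak was also within 1 kb of GEMIN6, which encodes a part of the SMN complex that assembles Sm rings. SRSF8 (15.74) was bound 737 bp downstream of an annotated start and 1875 bp from the canonical one, where the 201 bp around the summit had a CpG observed to expected ratio of only 0.17. SRSF6 (15.34), SRSF3 (14.67), SRSF1 (14.57), an SR protein with oncogenic activity when overexpressed, SRSF5 (12.16) and SRSF10 (11.69) were bound as well. The value of SRSF9 (14.81) came from a peak 26205 bp upstream of its canonical TSS, at a start shared with DYNLL1, and the peak 219 bp upstream of the canonical TSS had only 6.96. SRSF2, which binds exonic enhancers and is recurrently mutated in myeloid neoplasms, was the weakest of all 63 genes (4.02), and SRSF4 and SRSF12 had no MAX promoter peak.

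Several HNRNP genes carried more than 1 MAX peak. Of the 18 bound genes, 10 had at least 2 promoter peaks, or 9 of 17 without the read-through gene HNRNPUL2-BSCL2, which rests on the peaks of HNRNPUL2. HNRNP genes also had a median of 9 annotated TSSs against 5 for all protein-coding genes, and the part of TSS number in this count was not tested. Among them, HNRNPF, HNRNPL and HNRNPDL had 3 each. Over all 63 genes, 15 (23.8%) had at least 2, against 16.4% of all protein-coding genes with a peak, and 10 of these 15 were HNRNP genes. After HNRNPF, the highest fold enrichments were those of HNRNPL (18.22), which binds CA-rich RNA, HNRNPR (17.93) and HNRNPD (17.77), the last an AU-rich element binding protein that influences RNA decay. HNRNPA0 and the exon silencer binding HNRNPA1 (15.59 each), HNRNPH3 (15.51) and the poly(C) binding HNRNPK (14.91) followed, and HNRNPUL1 (13.49), HNRNPDL (13.25), HNRNPA3 (12.97) and HNRNPLL (11.69) were intermediate. HNRNPM and HNRNPH1 (10.15 each), the chromatin-associated HNRNPU (9.65), HNRNPUL2 and its read-through gene HNRNPUL2-BSCL2 (9.35 each, the same peak) and HNRNPC (7.62), which binds uridine tracts, were the lowest. At HNRNPL, the peaks of 18.22 (28 fragments) and 9.14 (36 fragments) show that the order by fold enrichment was not the order by fragments.

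The 7 HNRNP genes without a MAX promoter peak were HNRNPA2B1, HNRNPAB, HNRNPH2, HNRNPA1L2, HNRNPA1L3, HNRNPCL1 and HNRNPCL2. The last 4 are copies of other hnRNP genes, and none of their canonical promoters was CpG-rich. Whether reads from such copies were placed uniquely was not tested. HNRNPA2B1, an abundant hnRNP, was 1074631 bp from the nearest MAX summit. HNRNPH2 had 2 CACGTG within 250 bp of its canonical TSS, and its nearest MAX summit was 17151 bp away. In all, 17 of the 23 unbound splicing factor genes had CpG-rich promoters, as had 6842 of the 12788 unbound protein-coding genes. Of the 23, 20 had no MAX summit within 10 kb, and the share over all genes was not computed for this count.

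The order of the genes by fold enrichment differed from that by fragment count, and the local input background differed between them. It was over 2% above the genome-wide level of 1.28 fragments at 53 of the 63 genes (84.1%), against 79.8% of all protein-coding genes with a peak. PRPF6 and PRPF8 had 33 fragments each and PRPF19 had 32, so that they ranked 4, 4 and 7 by fragments among the 63 genes, but 32, 51 and 55 by fold enrichment. The background was 2.84, 3.54 and 3.94 at these genes, and 4.73 at SRSF2, the highest of all. By contrast, SRSF7 and HNRNPR, with 23 fragments each over a background of 1.28, shared rank 5 by fold enrichment. HNRNPF and SNRPE ranked 1 and 2 by fold enrichment and were level by fragments.

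**Figure D4:**
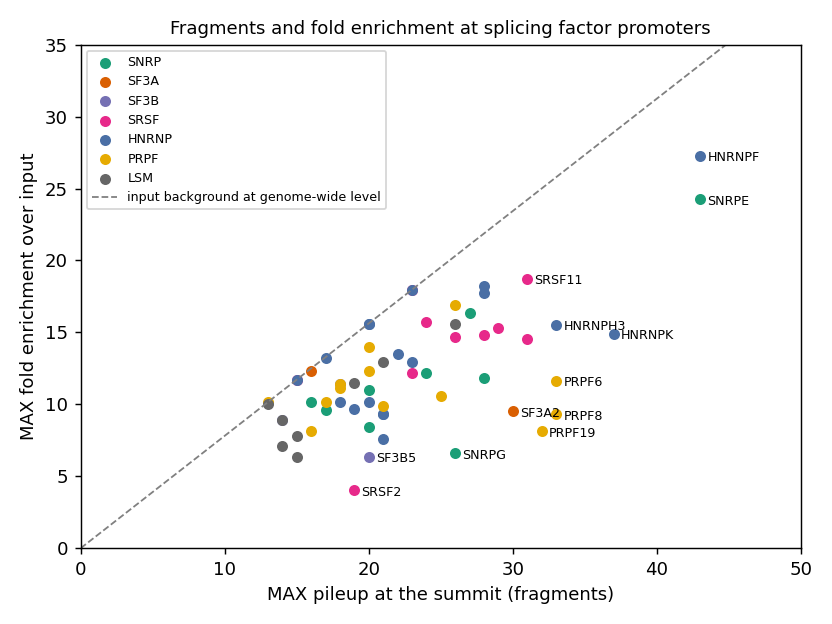
MAX fragments at the summit (x axis) against MAX fold enrichment over input (y axis) for the strongest promoter peak of the 63 genes, coloured by subfamily; the dashed line marks an input background at the genome-wide level. Genes far below the line, such as PRPF8, PRPF19 and SNRPG, had a high local input background.

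The canonical E-box was found at few of these promoters. CACGTG occurred within 100 bp of the strongest summit at 8 of the 63 genes (12.7%, interval 6.58% to 23.1%), against 21.0% of all protein-coding genes with a MAX promoter peak, a value inside that interval. It occurred at 4 of 18 HNRNP genes, at 1 gene each of SF3B, SRSF, PRPF and LSM, and at none of the 9 SNRP and 2 SF3A genes. Over the whole peak, SNRPA and SNRPC held it too (22.2% of SNRP genes, against 30.2% of all protein-coding genes with a peak). For the 9 SNRP genes a count of 0 allows a share of up to 29.9% (Wilson), so that the difference from 21.0% was not detectable with so few genes. When E'-boxes were counted as well, 12 genes (19.0%) held an element, against 26.3%. The 8 genes were HNRNPF, HNRNPH3, HNRNPA3, HNRNPM, SF3B1, SRSF6, PRPF3 and LSM1. The elements of the first 7 are printed on the gene's strand with 12 bases of hg19 to either side and CACGTG in capitals, to show their flanks.
HNRNPF, chr10:43903323-43903352, minus strand: aagccgcgcgctCACGTGgctgcaggcgcc
HNRNPH3, chr10:70091388-70091417, plus strand: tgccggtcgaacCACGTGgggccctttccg
HNRNPA3, chr2:178077439-178077468, plus strand: cggaaaacgcgtCACGTGacgactggcccc
HNRNPM, chr19:8509805-8509834, plus strand: gttgcgtcgggtCACGTGggcgcgcaggcg
SF3B1, chr2:198299843-198299872, minus strand: tggcagttctgtCACGTGtcacccgacgga
SRSF6, chr20:42086929-42086958, plus strand: tacgggcgcgcgCACGTGcgcgtcctggct
PRPF3, chr1:150293904-150293933, plus strand: gccctccttggtCACGTGttgggagacagc

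The centres of these elements lay 11 bp (HNRNPF), 25 bp (HNRNPH3), 91 bp (HNRNPA3), 49 bp (HNRNPM), 24 bp (SF3B1), 59 bp (SRSF6) and 20 bp (PRPF3) from the MAX summit. The fold enrichments ranged from 10.15 at HNRNPM to 27.29 at HNRNPF, and LSM1 had 7.11. The median was 13.48 at the 8 genes with the element and 11.48 at the other 55, compared with 13.41 and 10.15 for all protein-coding genes. Over all genes, the share with CACGTG rose from 10.5% in the lowest quartile of fold enrichment to 40.5% in the highest (above 13.94). Of the 20 splicing factor genes in that highest quartile, 4 (20.0%) had the element. The difference from 40.5% rests on few genes and was not tested. SRSF11, HNRNPL, SRSF7, HNRNPR, HNRNPD, PRPF4B and SNRPD2, which ranked 3 to 9, had none within 100 bp of the summit.

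Seen from the promoter sequence, CACGTG was present within 250 bp of the canonical TSS of 11 splicing factor genes (12.8%), close to the 11.0% of all protein-coding genes. A MAX promoter peak was listed at 9 of these 11 genes and at 54 of the 75 without the element (72.0%). Over all protein-coding genes these shares were 54.0% with and 34.7% without it. Of the bound genes, 85.7% of the splicing factor genes and 83.9% of all protein-coding genes thus lacked this element near the canonical TSS, which is nearly the same share.

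Other short elements were searched on both strands within 100 bp of the same summits, and matches of different elements may share bases. The form CACGCG was present at 13 of the 63 genes (20.6%, against 19.8% of all protein-coding genes with a MAX promoter peak) and CATGTG at 2 (3.17%, against 8.14%). GGGCGG, the core of the GC box, was present at 31 (49.2%, against 52.4%), and CCAAT at 20 (31.7%, against 24.1%). CCGGAAG, the core recognised by ETS family factors, was present at 13 (20.6%, against 13.8%). Among the 36 other spliceosome genes with a MAX promoter peak it was present at 10 (27.8%). By subfamily, CCGGAAG was at 6 of 9 SNRP genes, 3 of 13 PRPF, 2 of 18 HNRNP, 1 of 10 SRSF and 1 of 2 SF3A genes, and at none of the 3 SF3B and 8 LSM genes. These counts rest on few genes, several elements and subfamilies were compared, and the differences were not tested. The SNRP sites nearest to the summit are printed on the gene's strand with CCGGAAG (or CTTCCGG on the other strand) in capitals, since this was the element that most of these promoters had in common.
SNRPA1, chr15:101835548-101835577, minus strand: gcgcgccacgaCTTCCGGcaagaacgcccc
SNRPB, chr20:2451458-2451487, minus strand: agtgagctggaCCGGAAGtaggtttctacc
SNRPC, chr6:34725060-34725089, plus strand: aatacgctcttCCGGAAGcaccgacaaaca
SNRPD1, chr18:19192197-19192226, plus strand: gctcctcgcggCCGGAAGagagtgcggccc
SNRPE, chr1:203830723-203830752, plus strand: ggttctttattCCGGAAGttgctctcagag
SNRPG, chr2:70520944-70520973, minus strand: tgaggacataaCCGGAAGctcaacgatgac

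The centre of the SNRPE site was 1 bp from the MAX summit, that of SNRPB 10 bp, that of SNRPD1 33 bp, that of SNRPC 57 bp, that of SNRPG 66 bp and that of SNRPA1 95 bp. SNRPC, SNRPD1 and SNRPE held 2 such sites each. These matches describe the sequence under the summits, and the binding of ETS factors was not measured.

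Many of the promoters were shared with a neighbouring gene. At 22 of the 63 genes (34.9%, against 31.7% of all protein-coding genes with a MAX promoter peak), the strongest summit was also within 1 kb of a TSS of another protein-coding gene, such as ORC1 at PRPF38A, XPC at LSM3, CBX5 at HNRNPA1, CDC26 at PRPF4 and TFPT at PRPF31. HNRNP genes had 4 such peaks among 18, SRSF 5 among 10 and PRPF 5 among 13. At these loci the peak cannot be assigned to 1 gene of the pair.

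Beyond the promoters, a BMAL1 summit lay within 10 kb of a TSS at 4 of the 86 genes (4.65%, against 3.31% of all protein-coding genes). Besides HNRNPF and SNRPE these were LSM12, with a BMAL1 summit 3025 bp away (fold enrichment 19.18), and HNRNPK, with one 6581 bp away (10.38). At LSM12 a MAX summit with a fold enrichment of 23.8 lay 3039 bp from a TSS, so that both factors were listed beyond 1 kb of that gene.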

How the data were processed

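BMAL1 and MAX ChIP-seq peaks of MDA-MB-231 cells were used, 1 library for each antibody. The authors aligned reads on hg19 with BWA 0.6.2 and called peaks with MACS2 2.0.9 against 1 input library, separately for each antibody. The deposited values are the pileup signal at the summit (fragments of 300 bp, not scaled for depth), the fold enrichment ratio of this pileup over the local input background, and -log10 p-values and q-values (as -log10) by the peak caller. The file headers record a cutoff of 1e-05, and all listed peaks were used. The paper states a stricter threshold, equal to a -log10 p of 8. With only such peaks the MAX share was 72.1%, against 34.1% of all protein-coding genes, and that of SRSF was 75.0% in place of 83.3%. At most 2 tags (BMAL1) or 1 tag (MAX) were kept at any position. At these depths the expected background pileup was 1.54 for BMAL1 and 1.28 for MAX, so an unlisted promoter is one without a peak past the cutoff, not one without binding.

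Summits were assigned to every protein-coding gene (GENCODE release 44 on GRCh37, the assembly hg19 names) with a TSS at most 1 kb away. Each gene was represented by its peak of highest fold enrichment. Shares carry Wilson 95% intervals and medians order-statistic intervals. With 1 library per antibody no replicate test was possible. Other choices of window, threshold, TSS set, measure and motif were tried. The named genes were those with a BMAL1 promoter peak, the 3 highest, the lowest and the unbound members of each subfamily and the 3 highest other spliceosome genes, and the remaining members were named once, except 1 that is not reported here by name. Members and lists were chosen with earlier results of these data known. The assignment was tested on simulated data. Sequences were read with pysam 0.24.0, tables were handled in pandas 2.3.3, and figures were drawn with matplotlib 3.10.9.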

Additional observations from a re-analysis of the deposited data

How the results depend on the processing

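Of 157 alternative values for 35 results, 149 stayed within the 95% interval of the reported value (for medians over fewer than 6 genes, within their range) and 8 did not. For small subfamilies these intervals are wide, so staying within them says little about stability. The SF3A share, for example, went from 66.7% to 33.3% with 300 bp, and the HNRNP median from 13.37 to 10.15 with the nearest peak. Both counted as within. The MAX share of the splicing factor genes was between 60.5% and 76.8% over its alternatives. It fell to 60.5% when only peaks with a -log10 p of at least 12 were kept, where 23.5% of all protein-coding genes had one, and the same threshold left 16.7% of SF3B and 20.0% of LSM genes. CACGTG was found at 25.4% of the 63 genes at 50.0% of HNRNP genes and at 22.2% of SNRP genes when the whole peak was searched, against 30.2% of all protein-coding genes with a MAX promoter peak. Relative to all genes, the SF3A median was 1.01 with fold enrichment, 1.21 with pileup and 1.18 with -log10 p, and the PRPF median was 0.98 with fold enrichment and 1.15 with -log10 p. The cause was not tested. The BMAL1 share was 2.33% or lower in each alternative, and rests on 2 genes. With 300 bp in place of 1 kb, 7 genes lost their peak, and none was gained at 2 kb. The canonical TSS and the setting without HNRNPUL2-BSCL2 were chosen after the data were seen. No paired analysis was possible because each antibody had 1 library. Depth limits the weak peaks most, since the lowest pileup among the 63 genes was 13 fragments.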
